A study of Mus musculus with 6 samples.

Results

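The Ly6/uPAR genes encode small cysteine-rich proteins, most of them held on the outer cell surface by a lipid (GPI) anchor. Of this family 10 genes were followed here: Psca, Ly6a, Ly6c1, Ly6d, Ly6e, Ly6g6c, Lypd2, Lypd3, Lynx1 and Slurp1. They were found by their symbol in the array's gene annotation, taking only probe sets that carry 1 symbol. This gave a value for 8 of the 10 genes, among 19938 genes measured. Ly6c1 appears only on probe sets shared with its close relative Ly6c2, which are given separately as a shared signal, and no probe set listed in the annotation carries Ly6a, which was not analysed here. The 10 genes were selected with their values on these arrays known, so their levels and fold changes are given as a description. Their calls in the fit over all genes are listed further on, and for the same reason are no independent evidence.

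The arrays measured RNA of keratinocytes, the epithelial cells of the epidermis, isolated from the skin of C57BL/6 mice at E18.5, shortly before birth, and cultured. The design had 3 genotypes with 2 Affymetrix arrays each, and every array pooled 2 mice. The Ovol1/2 double knockout (DKO) carried Ovol1-/- with Ovol2flox/- and the K14-Cre transgene, which acts in basal keratinocytes; the Ovol1 KO was Ovol1-/-; and the control was Ovol2flox/+ with either Ovol1+/- or K14-Cre. All cultures had grown for 2 to 5 days before calcium, which starts keratinocyte differentiation, and for 3 to 5 days after it. Ovol1 and Ovol2 are zinc finger transcription factors of epithelia, and the series asked what their loss does to gene expression in differentiating keratinocytes.

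Proteins of the family share a fold of finger-like loops that disulfide bonds hold together. Several belong to stratified epithelia: Lypd3 (C4.4A) is a surface protein of suprabasal keratinocytes, Ly6d marks squamous epithelium, and loss of the secreted SLURP1 in humans causes a thickening of palm and sole skin. Others act elsewhere, such as Lynx1, which binds nicotinic acetylcholine receptors and modulates them.

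The arrays differed in more than their genotype labels. All carry a female label, but the Y-linked gene Kdm5d lay at a log2 intensity of 7.53 and 7.64 in the DKO arrays and 7.50 in Ovol1 KO 2, against 14.7 in Ovol1 KO 1 and in both control arrays, and Xist, the RNA of the inactive X chromosome, split the arrays the same way. Sex-linked transcripts therefore separate DKO from control just as genotype does, and of the 3 groups the Ovol1 KO group held an array of each kind. Ovol1 was not lower in the knockouts, with 10.58 and 10.59 in DKO and 10.53 and 10.22 in Ovol1 KO, against 10.27 and 9.85 in control. Where its probes and those of Ovol2 lie relative to the deleted parts is not given in the sources used here, so neither gene checks the labels. Of 12 keratinocyte markers, Krt5 lay between 13.68 and 13.94 and Krt14 between 13.61 and 13.67, and apart from Krt15 all lay at 10.96 or above on every array. Krt15, a keratin of basal cells, lay at 13.04 and 12.16 in DKO, 9.0 and 10.98 in Ovol1 KO, and 8.04 and 9.05 in control, and rose in DKO against control (log2 fold change 4.06, SE 0.66, limma adjusted p = 0.027). Itgb4, an integrin chain of basal cells, fell by 0.79 on the log2 scale (SE 0.13, limma adjusted p = 0.030). Of the leukocyte markers Cd68 lay between 11.37 and 12.52, and all others, Ptprc among them, lay at 8.16 or below on every array. Of the endothelial markers Kdr and Flt1 lay at 8.43 or above in the Ovol1 KO and control arrays and at 6.85 or below in DKO, and the others, such as Cdh5 (6.77 to 7.06), lay at 8.49 or below on every array. Without a detection call in the table, low values cannot be separated from background.

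Of the measured genes, Psca set the DKO arrays furthest apart from the others. Psca, prostate stem cell antigen, is a GPI-anchored surface protein of several epithelia. Its level on the log2(intensity + 16) scale, after quantile normalization, was 9.78 and 7.08 in DKO, 13.18 and 12.87 in Ovol1 KO, and 12.99 and 12.82 in control. Both DKO arrays lay below all 4 others, and DKO 2 lay far below DKO 1. The means were 8.43 ± 1.91 in DKO, 13.02 ± 0.22 in Ovol1 KO and 12.90 ± 0.12 in control (SD, n = 2 each). In the deposited linear values, Psca had intensities of 902 and 131 in DKO, 9095 and 7354 in Ovol1 KO, and 7883 and 7158 in control.

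For Psca the log2 fold change was -4.47 between DKO and control (SE 0.74), -4.59 between DKO and Ovol1 KO and 0.12 between Ovol1 KO and control, with the same SE. The value against control corresponds to a mean 22.2-fold lower, and 18 of the 19938 genes had a lower fold change. Psca ranked 19 from the lowest in that comparison and 12 in DKO against Ovol1 KO. The DKO arrays differed from each other by 2.71 log2 units, against a median of 0.21 over all genes, and 34 genes including Psca differed by at least as much. With single arrays left out the value against control ran from -5.82, without DKO 1, to -3.12, without DKO 2. Because the cultures were bulk samples, fewer cells with Psca RNA and less of it per cell cannot be told apart.

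Among arrays with the same low level of Kdm5d, Psca in the 2 DKO arrays differed from Ovol1 KO 2 by -4.44 log2 units on average. Within each replicate number, the difference of Psca between DKO and control was -3.20 in replicate 1 and -5.74 in replicate 2.

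**Figure D1:**
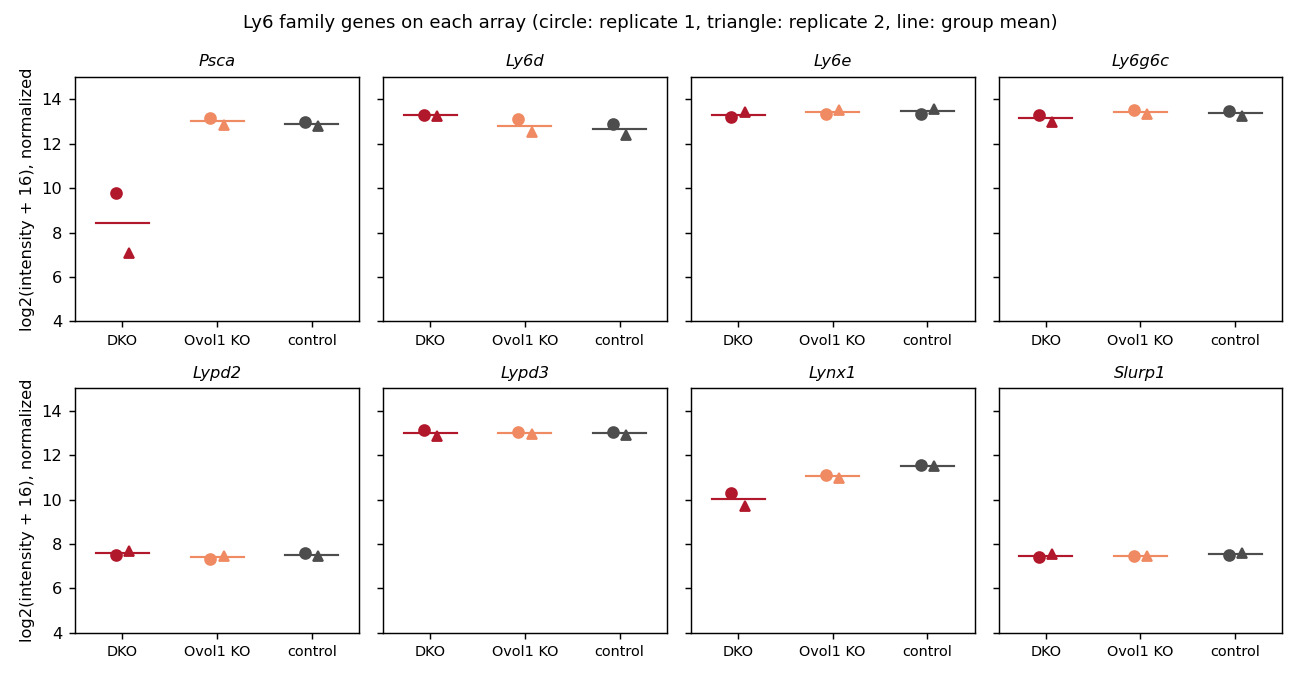
Normalized log2(intensity + 16) of the 8 measured genes on each array, by genotype, with replicate 1 as circles, replicate 2 as triangles and group means as lines. Psca lies at 9.78 and 7.08 on the DKO arrays and at 12.82 or above on the others, and Lynx1 is lowest in DKO, between in Ovol1 KO and highest in control, while the other 6 genes stay within 0.89 log2 units.

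Lynx1 was the other gene with lower values in DKO. It lay at 10.31 and 9.73 in DKO, 11.13 and 10.97 in Ovol1 KO, and 11.54 and 11.51 in control. No array of one genotype overlapped with those of another, and the DKO arrays were the furthest apart within a group. The deposited intensities were 1289 and 789 in DKO, 2230 and 1994 in Ovol1 KO, and 3060 and 2887 in control. Lynx1 averaged 10.02 ± 0.41 in DKO, 11.05 ± 0.11 in Ovol1 KO and 11.52 ± 0.03 in control (SD, n = 2 each). The log2 fold changes, each with an SE of 0.21, were -1.50 between DKO and control, -1.03 between DKO and Ovol1 KO and -0.48 between Ovol1 KO and control. The mean of DKO differed by -0.95 from Ovol1 KO 2, the Ovol1 KO array with low Kdm5d. RefSeq lists SLURP-2 as an older name of Lynx1, and the neighbouring gene Slurp2 has a probe set of its own, so signal of the 2 genes may not be fully separated. Slurp2, a relative that encodes a secreted protein, lay at 8.38 and 9.05 in DKO, 8.37 and 8.66 in Ovol1 KO, and 8.46 and 8.69 in control.

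Ly6d ran in the opposite direction. Its level was 13.30 and 13.27 in DKO, 13.10 and 12.55 in Ovol1 KO, and 12.90 and 12.41 in control. Both DKO arrays lay above the other 4, although Ovol1 KO 1 came close to them. The log2 fold changes, again with an SE of 0.21, were 0.63 between DKO and control, 0.46 between DKO and Ovol1 KO and 0.17 between Ovol1 KO and control. In both groups other than DKO, replicate 1 was higher than replicate 2, by 0.55 in Ovol1 KO and by 0.49 in control. These gaps are of the same size as the differences between genotypes.

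The remaining surface genes of keratinocytes were bright on every array. Lypd3 lay at 13.13 and 12.85 in DKO, 13.06 and 12.97 in Ovol1 KO, and 13.06 and 12.90 in control, so that its groups overlapped, with a log2 fold change in DKO against control of 0.01 (SE 0.11). Ly6e encodes a GPI-anchored protein that interferon induces and that serves as a receptor for syncytin in the mouse placenta. It lay at 13.19 and 13.42 in DKO, 13.36 and 13.52 in Ovol1 KO, and 13.35 and 13.57 in control. Its groups overlapped too, and its log2 fold change in DKO against control was -0.15 (SE 0.11).

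Ly6g6c, from a set of Ly6 genes within the major histocompatibility complex, lay at 13.31 and 13.00 in DKO, 13.53 and 13.35 in Ovol1 KO, and 13.49 and 13.27 in control. The DKO arrays were below both Ovol1 KO arrays but overlapped with control. The log2 fold changes were -0.22 between DKO and control and -0.28 between DKO and Ovol1 KO, each with an SE of 0.13.

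Slurp1 and Lypd2 were dim in all genotypes. Slurp1 lay at 7.40 and 7.56 in DKO, 7.48 and 7.45 in Ovol1 KO, and 7.49 and 7.57 in control, a span of 0.17 over the 6 arrays. Lypd2 lay at 7.48 and 7.67 in DKO, 7.34 and 7.46 in Ovol1 KO, and 7.59 and 7.45 in control, a span of 0.33. For both genes the DKO and control arrays overlapped, and the log2 fold changes in DKO against control were -0.05 for Slurp1 (SE 0.16) and 0.05 for Lypd2 (SE 0.17). With no detection call, levels this low may include background.

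In the limma fit over all genes, 2 of the 8 genes were below an adjusted p of 0.05 and lower in DKO than in control, namely Psca and Lynx1, where 2.26% of all genes were called lower (3.2% either way). None was called higher, where 0.943% of all genes were. In DKO against Ovol1 KO, 1 of 8 was called lower, Psca, and 0 higher, where 1.49% of all genes were called lower and 0.657% higher (2.15% either way). In Ovol1 KO against control 0 of 8 were called by limma, as for all genes (0%), and 0 of 8 had an unadjusted p below 0.05, as 0.813% of all genes did. As the genes were picked with these values known, nothing is read from the counts. The comparisons share arrays, and the median log2 fold change over the 8 genes was -0.10 in DKO against control, beside 0.02 over all genes. The call of Psca against control was lost without either Ovol1 KO array, with only the DKO and control arrays, with robust eBayes, and with the sex-linked gene Xist as a covariate (log2 fold change -4.10). Lynx1 lost its call against control with Xist as a covariate (-1.33). Xist was 12.12 and 12.26 in DKO and 4.71 and 4.65 in control, so it separates these groups completely. That setting therefore rests almost wholly on the difference between the Ovol1 KO arrays and cannot tell genotype from sex-linked differences. Over all genes, calls fell from 639 to 8 with it, so a call lost there says little about a single gene.

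**Figure D2:**
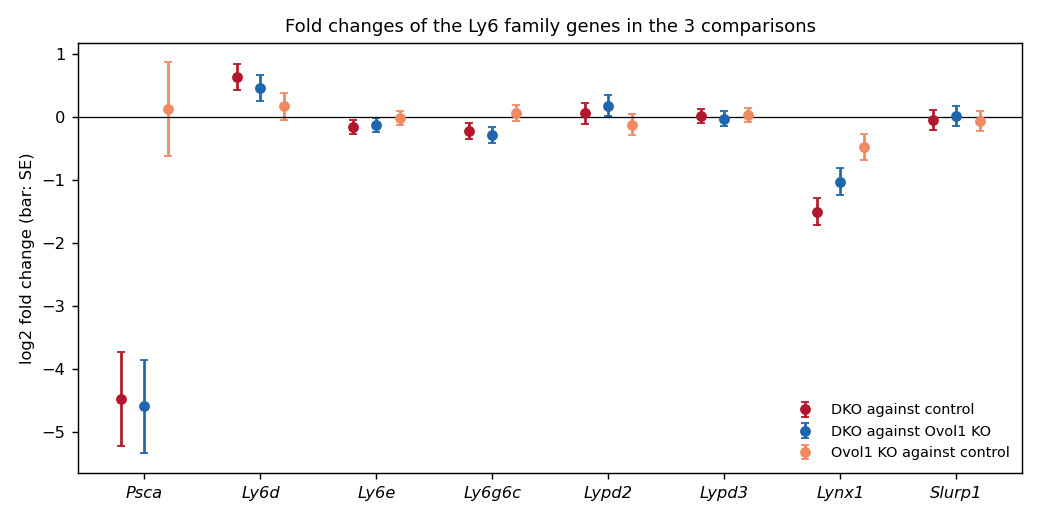
Log2 fold changes of the 8 measured genes in DKO against control, DKO against Ovol1 KO and Ovol1 KO against control, with the standard error of the limma fit as bars. Psca lies at -4.47 and -4.59 in the comparisons with DKO and at 0.12 in Ovol1 KO against control, Lynx1 lies below 0 in all 3, and the values of the other genes run from -0.28 to 0.63.

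The counts of genes whose groups do not overlap were as follows. Between DKO and control, 1 of the 8 genes lay wholly above (Ly6d) and 2 wholly below (Psca and Lynx1), beside 23.1% and 21.5% of all genes. Between DKO and Ovol1 KO, 2 lay above (Ly6d and Lypd2) and 3 below (Psca, Ly6g6c and Lynx1), beside 26.1% and 16% of all genes. Between Ovol1 KO and control, 0 lay above and 2 below (Lynx1 and Slurp1), beside 5.8% and 18.3%. The Ly6g6c, Lypd2 and Slurp1 separations were among differences of at most 0.28 log2 units.

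By the distance between profiles over the 6 arrays, each centred on its own mean, the genes nearest to Psca were Arg1, Krt19 and Krt18. Psca was the only measured member with a span of at least 2 log2 units, 6.10, which the rule for this comparison required. Arg1, which encodes arginase, had a root-mean-square distance of 0.30 log2 units, and lay at 9.06 and 6.14 in DKO, 12.22 and 12.58 in Ovol1 KO, and 12.20 and 12.60 in control. The distance was 0.39 for Krt19 and 0.41 for Krt18, both keratins of simple epithelia. Krt19 lay at 8.52 and 5.58 in DKO, 11.85 and 12.24 in Ovol1 KO, and 11.06 and 11.34 in control. All 3 shared with Psca a DKO 2 value well below that of DKO 1, which follows from their choice by likeness over these same arrays.

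**Figure D3:**
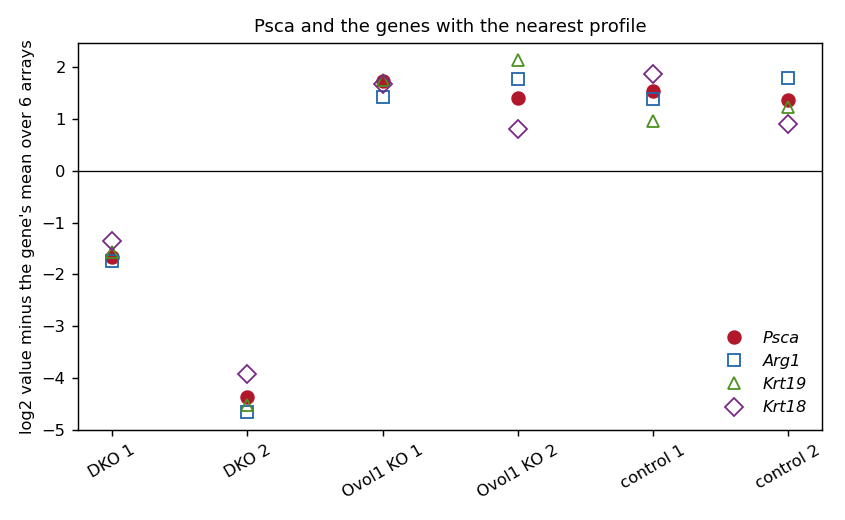
Log2 values minus each gene's own mean over the 6 arrays for Psca (filled circles) and for the 3 genes with the smallest root-mean-square distance to it. All 4 genes lie below 0 on both DKO arrays, lower on DKO 2 than on DKO 1, and above 0 on the Ovol1 KO and control arrays. The choice by distance selects for this likeness.

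Position in the genome, which was not used in the selection, places 8 of the 10 genes on mouse chromosome 15, in the cluster that holds most Ly6 genes. Ly6g6c is on chromosome 17 and Lypd3 on chromosome 7. In the RefSeq order of assembly GRCm38.p6, Psca is followed among tested genes by Them6, Slurp1, Lypd2, Slurp2, Lynx1 and Ly6d. Within this stretch Psca and Lynx1 were lower in DKO, while the genes between them were not called. Them6 lay at 9.44 and 8.82 in DKO, 9.18 and 9.44 in Ovol1 KO, and 9.36 and 9.32 in control, with a log2 fold change in DKO against control of -0.21 (SE 0.25, limma adjusted p = 0.82).

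Over the cluster and 200 kb on each side of its outermost family genes, 33 genes were tested. Of these, 6 are the genes described above and 17 are in neither family list, although Ly6g6g and Ly6a2 among the 17 carry Ly6 names. Of the other 27, 0 were called by limma in either direction between DKO and control, beside 3.2% of all genes. Beside 14.5% of all genes, 1 of the 27 had an unadjusted p below 0.05. It was Ly6m, with 10.06 and 9.65 in DKO, 9.63 and 9.42 in Ovol1 KO, and 10.35 and 10.35 in control. Its log2 fold change was -0.49 in DKO against control (SE 0.20, adjusted p = 0.34) and -0.82 in Ovol1 KO against control (SE 0.20, adjusted p = 1.0). Ly6m was thus lower in both knockout groups than in either control array, by amounts that did not pass. The median log2 fold change of the 27 genes was 0.14 in DKO against control, beside 0.02 over all genes.

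**Figure D4:**
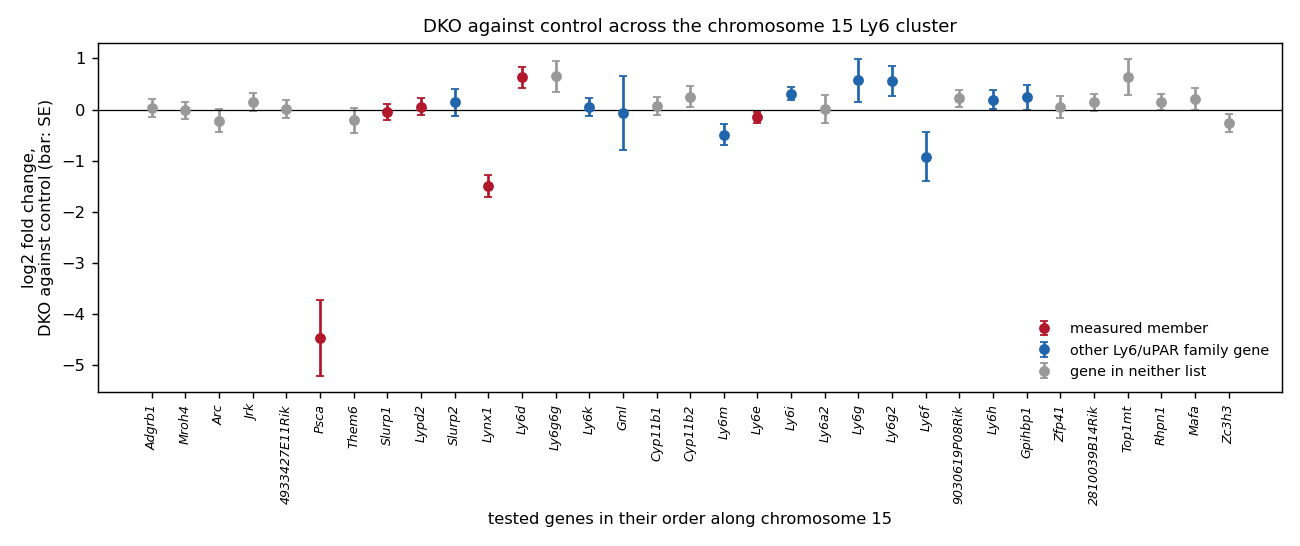
Log2 fold change in DKO against control, with standard errors, of the 33 tested genes of the chromosome 15 cluster and 200 kb on each side. Genes stand in their order along the chromosome, with the measured members, other Ly6/uPAR family genes and genes in neither list in different colours. Psca (-4.47) and Lynx1 (-1.50) stand below the rest, which run from -0.93 (Ly6f) to 0.65 (Ly6g6g). Ly6g6g and Ly6a2 carry Ly6 names but are coloured as genes in neither list.

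A list of 49 further Ly6/uPAR genes was set down from family membership, of which 40 had a value. The list left out Ly6g6g and Ly6a2. Between DKO and control 1 of the 40 fell, 0 rose and 39 did not pass, beside 2.26% and 0.943% of all genes, and 4 had an unadjusted p below 0.05, beside 14.5%. The gene that fell was Plaur, which encodes the urokinase receptor, a GPI-anchored protein that focuses plasminogen activation at the cell surface. Plaur lay at 6.32 and 7.0 in DKO, 10.63 and 9.22 in Ovol1 KO, and 11.19 and 9.89 in control. Both DKO arrays lay below the other 4, and replicate 1 was above replicate 2 in the other groups. With an SE of 0.57, its log2 fold change was -3.87 between DKO and control (limma adjusted p = 0.019) and -3.26 between DKO and Ovol1 KO (adjusted p = 0.042). The call against control was lost without DKO 1 (log2 fold change -3.53) and without DKO 2 (-4.21). With Xist as a covariate the call was lost too (-2.47, limma adjusted p = 0.70). That setting cannot tell genotype from sex-linked differences between these groups.

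The median of the 40 genes was 0.11 in DKO against control, beside 0.02 over all genes. The highest value was that of Cd59a, picked for that value, which encodes an inhibitor of the complement membrane attack complex. Cd59a lay at 10.49 and 11.22 in DKO, 9.84 and 10.05 in Ovol1 KO, and 10.27 and 9.57 in control, and its log2 fold change between DKO and control was 0.93 (SE 0.32, adjusted p = 0.23). Both DKO arrays lay above the 4 others, although the change did not pass. Lypd6 was likewise picked after the fit, and lay at 8.58 and 7.93 in DKO, 7.42 and 7.05 in Ovol1 KO, and 7.78 and 6.96 in control (log2 fold change 0.88 against control, SE 0.34, adjusted p = 0.29). In Ovol1 KO against control limma called 0 of the 40, beside 0% of all genes. Of the 40, 3 were below an unadjusted p of 0.05, with Ly6m the smallest, beside 0.813% of all genes. The others were Lypd4 (5.30 to 5.77 over the arrays, log2 fold change -0.32) and Pate14 (5.62 to 6.04, -0.33). Both were dim on every array, where values may include background, so nothing is read from this count.

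**Figure D5:**
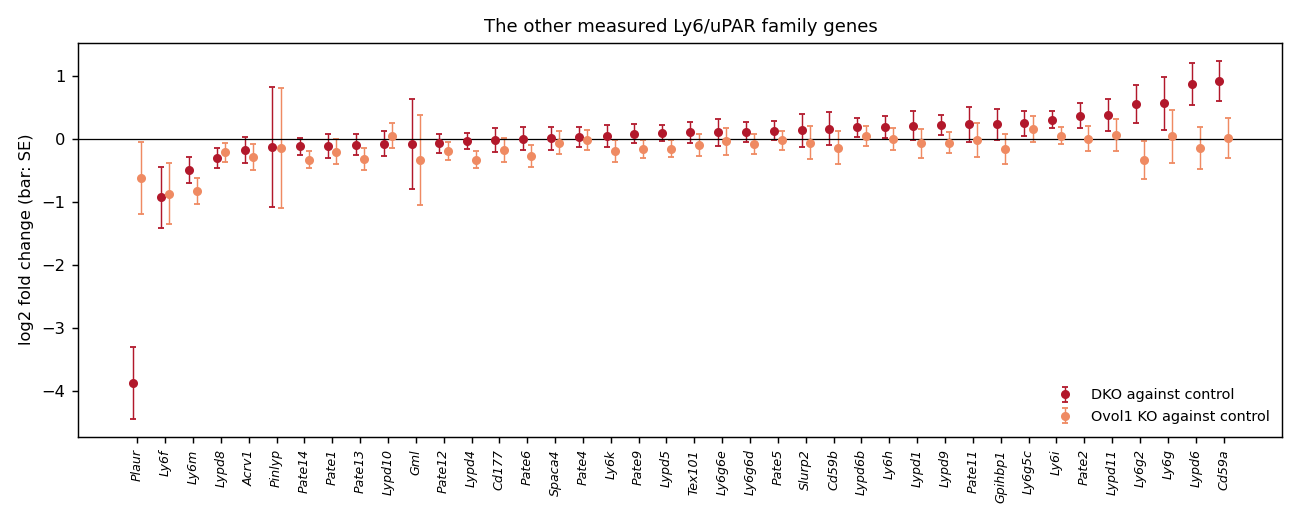
Log2 fold changes, with standard errors, of the 40 other measured Ly6/uPAR family genes in DKO against control and in Ovol1 KO against control, ordered by DKO against control. Plaur at -3.87 stands apart in DKO against control, and the other genes run from -0.93 to 0.93.

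Plaur and Lypd3 lie in a further family cluster on chromosome 7. Over the whole of that chromosome 10 family genes were measured, and Plaur was the gene called in DKO against control. The 250 bases upstream of the RefSeq starts of Plaur and Lypd3 (GRCm38.p6, plus strand) are shown because these surface genes of the same cluster differed. In DKO against control the difference was -3.87 log2 units for Plaur and 0.01 for Lypd3. The first window is chr7:24462233-24462482 and the second chr7:24636320-24636569.
Plaur: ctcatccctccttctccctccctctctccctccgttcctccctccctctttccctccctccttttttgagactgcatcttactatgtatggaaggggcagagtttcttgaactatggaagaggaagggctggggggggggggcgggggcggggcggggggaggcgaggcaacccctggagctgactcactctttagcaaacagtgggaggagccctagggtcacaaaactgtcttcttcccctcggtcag
Lypd3: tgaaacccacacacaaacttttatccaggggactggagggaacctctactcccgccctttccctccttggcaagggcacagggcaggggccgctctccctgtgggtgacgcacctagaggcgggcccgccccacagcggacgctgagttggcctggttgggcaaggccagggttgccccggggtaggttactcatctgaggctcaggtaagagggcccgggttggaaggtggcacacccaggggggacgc
The letters CCGTTA, the core that OVOL proteins bind, and CAGGTG, an E-box that ZEB and SNAIL proteins bind, were searched on both strands and would be in capitals. Neither was in these windows. CCGTTA was in 2.18% and CAGGTG in 17.2% of the 32851 RefSeq promoter windows of this length. Promoters matched for 3 of the 10 genes (Lypd3, Ly6c1 and Ly6g6c), with 0 holding either run of letters. They also matched for 34 of the other family genes, of which 0 held CCGTTA and 11 held CAGGTG. These counts are of genes, with any window of a gene counting, so they cannot be set against the shares of single windows.

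Genes that act with Ly6 proteins were counted for the same arrays. Between DKO and control, 3.2% of all genes were called and 14.5% had an unadjusted p below 0.05, and the counts stand beside these shares. Of 16 nicotinic acetylcholine receptor subunit genes, the receptors that Lynx1 and SLURP1 bind, 0 were called by limma between DKO and control and 1 had an unadjusted p below 0.05. This was Chrnb1, with 7.31 and 6.80 in DKO, 8.91 and 7.93 in Ovol1 KO, and 9.18 and 7.71 in control (log2 fold change -1.39 against control, SE 0.52, adjusted p = 0.28). Of 28 measured genes of GPI anchor synthesis limma called 0, and 2 were below an unadjusted p of 0.05. The median log2 fold change of these genes was 0.05, beside 0.02 over all genes. Pgap3, which remodels the lipid of the anchor, had the smallest p, and its log2 fold change was 0.62 (SE 0.22, adjusted p = 0.24).

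Interferon induces several Ly6 genes, Ly6e among them. Of 24 measured interferon responsive genes 2 fell in DKO against control, 0 rose and 22 did not pass, beside 2.26% of all genes called lower and 0.943% called higher. Ifit2 fell by 1.58 on the log2 scale (SE 0.18, limma adjusted p = 0.0081) and Rsad2 fell by 1.95 (SE 0.27, adjusted p = 0.015). Both encode proteins of the antiviral response. The list had a median of -0.05, and Ly6e differed by -0.15.

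Among 20 measured suprabasal keratinocyte genes 4 rose in DKO against control, 0 fell and 16 did not pass, beside 0.943% of all genes called higher and 2.26% called lower. They were Krt10, Lor, Krt1 and Tgm3, with Krt10 at 13.93 and 13.01 in DKO, 9.28 and 9.48 in Ovol1 KO, and 9.77 and 8.89 in control (log2 fold change 4.14, SE 0.37, limma adjusted p = 0.0035). Lypd3, which is likewise suprabasal in epidermis, had a log2 fold change of 0.01 on the same arrays.

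Markers of other cells of the skin that can carry Ly6 proteins were set beside these results, and of all genes 2.26% were called lower and 0.943% higher in DKO against control. Of 12 endothelial markers 1 was called lower in DKO than in control, Flt1, which fell by 2.27 on the log2 scale (SE 0.27, limma adjusted p = 0.0087). Of the 12, 2 lay wholly above control (Cdh5 and Emcn), beside 23.1% of all genes. With Flt1, 3 of the 12 lay wholly below control, beside 21.5% of all genes. The other two were Kdr, at 6.79 and 6.65 in DKO, 9.95 and 8.63 in Ovol1 KO, and 10.49 and 8.51 in control (log2 fold change -2.78, SE 0.66, adjusted p = 0.090), and Pecam1 (-1.12, SE 0.37, adjusted p = 0.21), and neither passed. The summed deposited intensity of the list was 1320 and 1563 in DKO, 2696 and 1962 in Ovol1 KO, and 3217 and 2063 in control. Kdr alone had 86.8 and 93.6 in DKO, 989 and 381 in Ovol1 KO, and 1447 and 346 in control. The median log2 fold change of the 12 markers was 0.01 in DKO against control, beside 0.02 over all genes. Of 15 leukocyte markers limma called 0, and 0 were below an unadjusted p of 0.05, beside 14.5% of all genes. Their sums were 5118 and 5943 in DKO, 4177 and 6268 in Ovol1 KO, and 4945 and 7246 in control. Of 13 fibroblast markers Postn rose, by 4.16 (SE 0.46, limma adjusted p = 0.0070), and Pdgfra fell by 1.06 (SE 0.18, adjusted p = 0.031). The other 11 were not called, with log2 fold changes of 0.20 for Col1a1, 0.12 for Col1a2 and 0.18 for Col3a1. The median of the list was 0.18. The sums were 10422 and 9059 in DKO, 3900 and 4451 in Ovol1 KO, and 4002 and 4542 in control. Fbln1, Thy1 and Postn had the highest intensities of the list in DKO. Of 12 melanocyte markers Kit fell by 1.43 (SE 0.25, adjusted p = 0.035), with sums of 2241 and 1560 in DKO, 7859 and 1849 in Ovol1 KO, and 5807 and 1796 in control. The melanocyte sum was higher in replicate 1 than in replicate 2 of every genotype. Psca was also higher in replicate 1, by 2.71 in DKO, 0.31 in Ovol1 KO and 0.17 in control. The same held for Lynx1, Ly6d, Lypd3 and Ly6g6c in every genotype, but not for Ly6e, Lypd2 and Slurp1, so the order is not particular to Psca. Tyrp1, a pigment enzyme of melanocytes, lay at 8.46 and 5.72 in DKO, 11.05 and 5.63 in Ovol1 KO, and 10.52 and 5.81 in control. The part of these cells in the values of Psca, Lynx1 and Ly6d was not tested.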

How the data were processed

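RNA of cultured mouse keratinocytes was measured on 6 arrays, 2 per genotype, grouped by the sample titles. For each probe set the authors deposited 1 intensity per array, not on a log scale. Tools named, without their role, in the submitters' processing notes were PLIER 2.0 and Affymetrix Expression Console 1.1.1. The sources used here do not give how background was corrected or arrays were scaled. Median intensities per array ran from 174.2 to 203.6, and the number of arrays limits the precision.

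Each of 35556 probe sets was transformed as log2(intensity + 16). Because quartiles differed by up to 0.22 between arrays, above a limit of 0.2, values were quantile-normalized. Of the probe sets, 21789 carried 1 symbol, 1621 several and 12146 none here. The brightest per gene was kept, giving 19938 genes. For 21698 of the single-symbol probe sets the Entrez identifier was in RefSeq (GRCm38.p6).

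One limma 3.58.1 model (R 4.3.3) with a mean per genotype and a variance trend was fitted over all 6 arrays, with 3 residual and 3.89 prior degrees of freedom. Calls used a Benjamini-Hochberg adjusted p below 0.05 over all genes. The spread is shared over the 3 groups, and p-values measure the spread between these pools of mice. The script was tested on simulated data. Members and gene lists were chosen with earlier results of these data known. Named were all members, per list up to 4 called genes without overlap between groups or else the smallest p, and the 3 nearest profiles. Alternatives covered the offset, normalization, filter, eBayes settings, probe set choice, arrays used, replicate block, Xist and single arrays.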

Additional observations from a re-analysis of the deposited data

Results flagged for a closer look

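Both probe sets that carry the symbols Ly6c2 and Ly6c1 together gave higher values in the DKO arrays than in either control array. They lie outside the single-symbol values above, and they cannot separate the 2 near-identical genes, whose proteins mark subsets of leukocytes and endothelium. The probe set 10429568 lay at 12.63 and 13.19 in DKO, 11.77 and 12.78 in Ovol1 KO, and 11.87 and 12.41 in control, a difference of 0.77 log2 units between the means of DKO and control. The probe set 10429573 lay at 12.26 and 12.89 in DKO, 11.27 and 12.37 in Ovol1 KO, and 11.41 and 11.92 in control, a difference of 0.91. On both, replicate 2 was above replicate 1 in every genotype, and Ovol1 KO 2 was above DKO 1. The differences were not tested.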

How the results depend on the processing

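The log2 fold changes of Psca, Lynx1, Ly6d and Plaur in DKO, against control and against Ovol1 KO, kept their sign under all 16 alternatives. Small, uncalled differences of Lypd2, Lypd3 and Slurp1 in DKO changed sign under some. With Xist as a covariate the median log2 fold change of all genes in DKO against control was -0.12, beside 0.02. Because Xist separates DKO from control completely, that setting cannot tell genotype from sex-linked differences, and few calls could remain with it. Of all genes, 639 were called in DKO against control, 1069 with the replicate block and 8 with Xist as a covariate (258 to 735 with single arrays left out: 258 without DKO 1 and 309 without DKO 2). In DKO against Ovol1 KO the 429 calls became 738 with only the compared arrays, 805 with the replicate block and 73 with Xist (88 to 738 with single arrays left out: 195 and 232 without DKO 1 or DKO 2, 88 and 217 without Ovol1 KO 1 or Ovol1 KO 2, and 738 and 734 without control 1 or control 2). In Ovol1 KO against control the 0 calls were 0 to 4 with single arrays left out, 4 without Ovol1 KO 1. Of the members, 2 were called in DKO against control, 1 with robust eBayes or only the compared arrays (Lynx1) and 0 with Xist, and 1 to 2 with single arrays left out, 1 without either Ovol1 KO array. In DKO against Ovol1 KO, 1 was called, 0 with robust eBayes or Xist, 2 (Psca and Lynx1) with only the compared arrays or the replicate block, and 0 to 2 with single arrays left out: 0 without either Ovol1 KO array and 2 without either control array. Of the other family genes, 1 was called in DKO against control, 2 with the replicate block (Plaur and Lypd6), 0 with Xist, and 0 to 2 with single arrays left out: 0 without either DKO array and 2, Plaur and Ly6f, without control 2. In DKO against Ovol1 KO, 1 was called, 0 with an offset of 64, no variance trend, robust eBayes or Xist, 3 with the replicate block (Plaur, Lypd6 and Ly6g2), and 0 to 1 with single arrays left out, 0 without any 1 DKO or Ovol1 KO array. The causes were not tested. Replicate numbers do not pair the mice by any label. Deviations of same-numbered arrays from their group means correlated across genes at 0.15 for DKO and control, 0.69 for Ovol1 KO and control, and 0.09 for DKO and Ovol1 KO, and with 2 numbers the block result is given as a setting only. Dim genes such as Slurp1 and Lypd2 are limited by the lack of a detection call.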
